A study of Mus musculus with 24 samples.

Results

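The oligoadenylate synthetase (OAS) family was represented by 8 genes: Oas1a, Oas1b, Oas1c, Oas1g, Oas2, Oas3, Oasl1 and Oasl2. They were taken by symbol from a table of 45777 mouse genes, and all 8 passed the filter on low counts in skin and in dorsal root ganglia (DRG, where the cell bodies of sensory neurons lie). OAS proteins bind double-stranded RNA and then join ATP into short chains called 2-5A. These chains act as a second messenger of the antiviral response. Most OAS genes are induced by interferon through its receptors and JAK-STAT signalling, so they serve as a common readout of interferon signalling in inflamed skin.

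Polyadenylated RNA was sequenced from 24 samples of female BALB/c mice aged 6 weeks, in 4 groups of 6 libraries: skin and DRG of control mice and of a rosacea model. In the model LL37, a human cathelicidin peptide, had been put into the dermis in volumes of 40 µL at 320 µM, 2 times a day over 2 days. The series description also names oral gabapentin at 100 mg/kg from day 3, with DRG taken on day 4. No label assigns that drug to a sample, so its part in any difference cannot be told apart from that of LL37, and neither the control injection nor the time of skin collection is stated. No label says whether each library is a different animal, and the p-values describe the spread among these libraries, which may be technical.

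Totals per library ran from 45238735 to 68396846 counts, and no library was a copy of another. The tissue labels matched the marker genes. The summed level of 8 keratinocyte markers was 7919 to 27032 CPM (counts scaled to library size) in skin and 3.52 to 5.65 CPM in DRG. The sum of 10 DRG neuron markers was 8889 to 11773 CPM in DRG and 2.09 to 7.16 CPM in skin, where Prdm12 had no counts. Among the skin controls, replicate 2 stood apart before any comparison: it had 1162 CPM of 6 hair follicle markers, against 32048 to 51099 CPM in the other 5. The 6 model skin libraries had 1771 to 25921 CPM, each also below those 5 controls. Any part of hair follicle content in the differences between the skin groups was not tested. Levels are given as CPM after TMM scaling within each tissue. Genes were called with the edgeR quasi-likelihood (QL) test where the p, adjusted by Benjamini-Hochberg (BH) over all tested genes, was under 0.05, and "rose" or "fell" is used only of called genes. Errors after ± are SDs over 6 libraries.

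The genes lie in 2 clusters on chromosome 5 (GRCm38.p6, RefSeq). Oasl2 (chr5:114896926-114912245) and Oasl1 (chr5:114923143-114937911) are neighbours on the plus strand, and 5792421 bases further on, Oas2, Oas3 and the Oas1 genes fill a span of 191316 bases. RefSeq promoter windows, from 250 bases before to 50 after an annotated start, were given for 6 of the 8 genes: Oas1a, Oas1c, Oas1g, Oas3, Oasl1 and Oasl2. The core of the interferon-stimulated response element, here 2 copies of GAAA with any 2 bases between them on either strand, was found in 4 of these 6 windows, against 3.44% of all 32851 windows. The 120 bases before the window's start site are shown for those 4 genes, 5′ to 3′ on the strand of each gene, with the matching letters in capitals, because several members share these letters. Stretches in capitals longer than the core are overlapping matches. RefSeq's gene table of the same build places the 5′ end of some genes further upstream, so that the window's start site lies 19 bases inside the gene for Oas1a, 26 for Oas1c, 25 for Oas3, 97 for Oasl1 and 8 for Oasl2, and at the 5′ end itself for Oas1g. Positions are counted from the window's start site unless another start is named.
Oas1a, minus strand, chr5:120907526-120907645: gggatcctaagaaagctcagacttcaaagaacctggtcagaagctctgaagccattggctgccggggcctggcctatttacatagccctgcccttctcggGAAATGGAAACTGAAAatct
Oas1g, minus strand, chr5:120887614-120887733: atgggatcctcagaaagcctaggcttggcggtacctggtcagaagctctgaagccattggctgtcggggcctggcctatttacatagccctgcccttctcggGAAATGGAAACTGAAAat
Oas1c, minus strand, chr5:120812515-120812634: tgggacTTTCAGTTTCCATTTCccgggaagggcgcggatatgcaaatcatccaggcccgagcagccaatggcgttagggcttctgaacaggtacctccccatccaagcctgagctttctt
Oas3, minus strand, chr5:120777660-120777779: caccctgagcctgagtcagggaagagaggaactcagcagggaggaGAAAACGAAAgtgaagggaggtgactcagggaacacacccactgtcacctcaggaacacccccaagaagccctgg

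The sequences of Oas1a and Oas1g were near copies, with 108 identical positions, 10 mismatches and 4 gaps in their alignment. Both held the same 16-letter block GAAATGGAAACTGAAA near their end, at -20 to -5 in Oas1a and -18 to -3 in Oas1g. By the gene table the Oas1g copy lies before the gene, and all but the first base of the Oas1a copy lies inside it. Oas1c held this block on its other strand, at -114 to -99. Oas1c and Oas1b are divergent neighbours: 94 bases lie between them in the gene table, and read from the Oas1b side the same copy sits at -22 to -7 from the 5′ end of Oas1b. The exact block occurred in 7 windows (0.0213%), those of Oas1a, Oas1c, Oas1g, Apol9a and Apol9b. Its spaced form, 3 copies of GAAA with any 2 bases between neighbours, occurred in 38 windows (0.116%), among them those of Bst2, Isg15 and Socs1. Windows of Kcnab1, Olfr1499 and Vhl, among others, held it too. In Oas3 the core stood at -75 to -66. A second motif, the gamma-activated site TTCNNNGAA, was in the window of 1 of the 6 genes (Oas1a), against 8.30% of all windows. The windows of Oasl1 and Oasl2 did not hold the letters of either motif. These are letter matches in a fixed window and describe the sequence only.

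**Figure D1:**
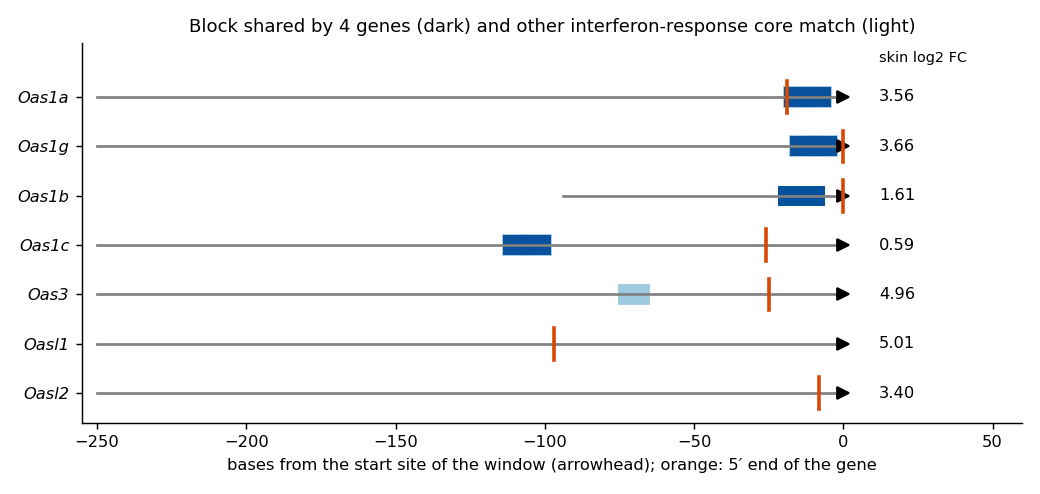
Position of interferon-response core matches relative to the start site of the window (arrowhead, in bases) for 7 OAS genes, with an orange line at the 5′ end of the gene in the gene table and the log2 fold change in skin printed at the right. Dark bars mark the 16-letter block that Oas1a, Oas1g, Oas1b and Oas1c have in common, which lies within 22 bases of the arrowhead in 3 of them and beyond 98 bases in Oas1c, and the light bar marks the single match of Oas3. For Oas1b, which has no window, the arrowhead is its 5′ end in the gene table and only the 94 bases between it and Oas1c are drawn.

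In skin, 7 of the 8 OAS genes rose in the model, and Oas1c, at 1.51-fold, did not pass the test. Of all tested genes 14.1% rose, a share given for scale only, as the members were chosen with earlier results of these data known. The median log2 fold change of the 8 genes was 3.48, against -0.02 over all 19526 genes tested. In 7 of the 8 genes every model library was above every control library, a pattern seen in 7.25% of all tested genes. A rise of at least 8-fold that passed the test was found in 6 of the 8 genes and in 1.26% of all tested genes. Monocyte and macrophage markers rose as well (12 of 12), and in bulk tissue more cells of a type and more RNA per cell cannot be told apart.

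**Figure D2:**
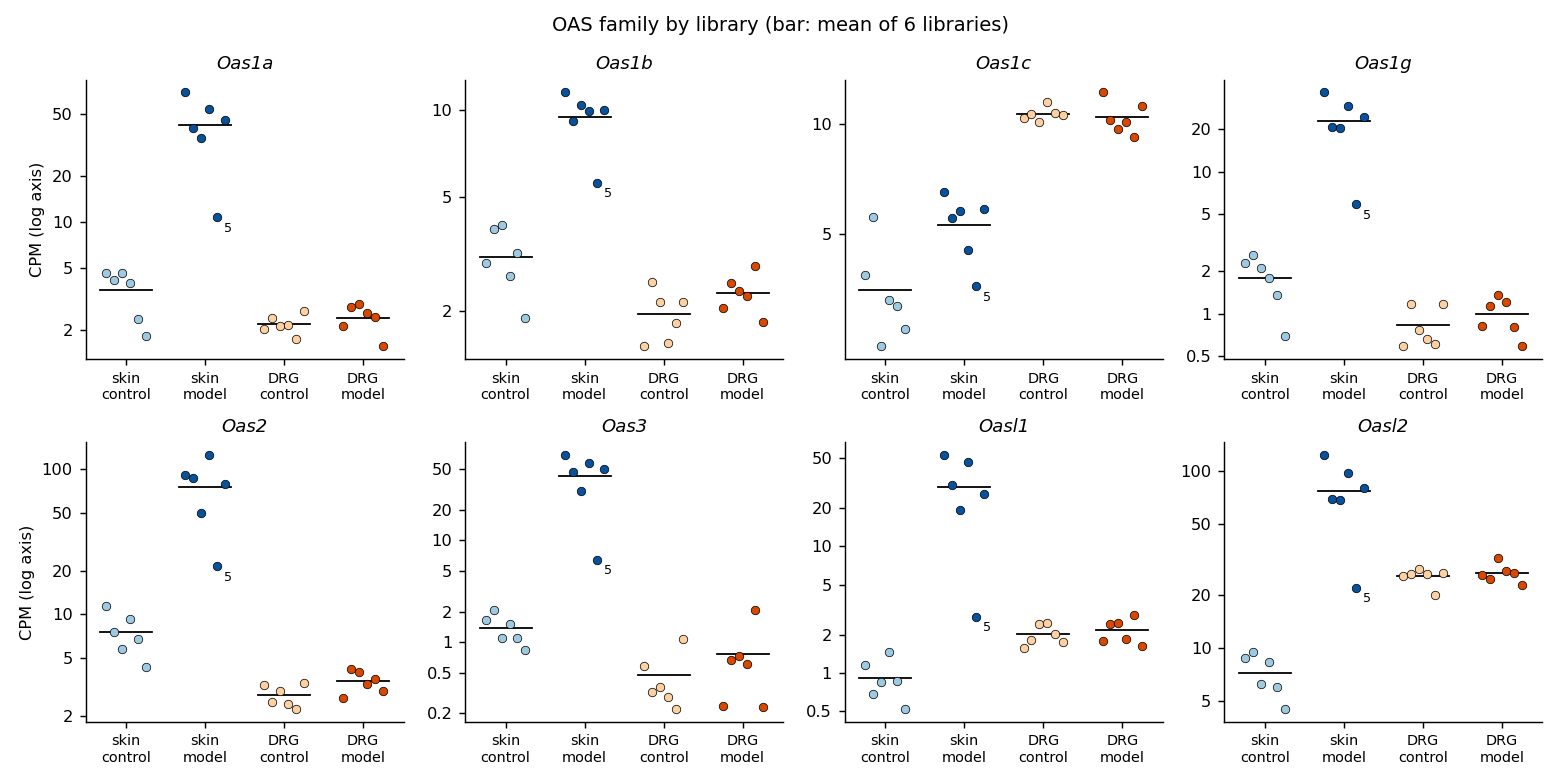
CPM on a log axis in each of the 24 libraries (points, in replicate order within a group) for the 8 OAS genes, with the mean of 6 libraries as a bar. In skin the model points lie above all control points in every panel except Oas1c, with model replicate 5 (marked 5) the lowest, and in DRG the groups overlap in every panel.

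Oas1a and Oas1g encode short synthetases that make 2-5A. Oas1a had 1.81 to 4.65 CPM in control skin (median 4.14) and 10.8 to 69.4 CPM in model skin (median 43.3). The groups did not overlap. The mean went from 3.62 ± 1.23 to 42.7 ± 19.7 CPM, a log2 fold change of 3.56 (SE 0.41, 11.8-fold, BH-adjusted p = 0.000548, edgeR QL). Oas1g had 0.698 to 2.57 CPM in control skin (median 1.93) and 5.87 to 36.01 CPM in model skin (median 22.3), with a log2 fold change of 3.66 (SE 0.42, 12.6-fold, BH-adjusted p = 0.000548, edgeR QL). Again every model library was above every control. The transcripts of these 2 genes are hard to separate by short reads: 57.6% of the 50-base stretches of Oas1a and 45.7% of those of Oas1g also occur in another gene, in nearly all cases in each other, so how the authors' counting divided the reads between them is uncertain. The ratio of Oas1a to Oas1g counts had a median of 2.14 in control skin (range 1.64 to 2.60) and 1.89 in model skin (1.73 to 1.99).

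Oas1b is the mouse gene linked to resistance to flaviviruses, and most laboratory strains carry a truncated form. RefSeq lists it as a transcribed pseudogene. Its counts went from 1.89 to 4.00 CPM in control skin (median 3.07) to 5.61 to 11.5 CPM in model skin (median 9.998), without overlap. The log2 fold change was 1.61 (SE 0.21, 3.06-fold, BH-adjusted p = 0.000582, edgeR QL). Oas1c, whose protein has little or no synthetase activity, had 2.46 to 5.57 CPM in control skin (median 3.24) and 3.59 to 6.53 CPM in model skin (median 5.66). Here the groups overlapped, with 3 of 6 model libraries above all controls, and the highest control was replicate 2, the control library low in hair follicle markers. The log2 fold change was 0.59 (95% interval 0.14 to 1.05, BH-adjusted p = 0.066, edgeR QL). Without control replicate 2 it was 0.77 with an adjusted p of 0.00800, and without model replicate 5 the adjusted p was 0.0225. Oas1b and Oas1c lie 94 bases apart on opposite strands and how strand was treated in counting is not stated, so reads near their shared start region could fall to either.

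Oas2, a synthetase of intermediate size, had 4.33 to 11.5 CPM in control skin (median 7.15) and 21.4 to 124.0 CPM in model skin (median 82.6). Its log2 fold change was 3.32 (SE 0.38, 9.97-fold, BH-adjusted p = 0.000548, edgeR QL). Oas3, the long synthetase with several repeated synthetase units that favours long double-stranded RNA, had 0.837 to 2.08 CPM in control skin (median 1.32) and 6.46 to 68.6 CPM in model skin (median 48.4). That change of 4.96 on the log2 scale (SE 0.50, 31.2-fold, BH-adjusted p = 0.000548, edgeR QL) was, with that of Oasl1, one of the 2 largest in the family. Neither gene had a model library within the control range. The size of the change of Oas3 depended on the scale: on log2(TPM + 1), which lowers the change of genes with low levels, it was 3.42, and on log2(TPM + 0.1) it was 4.54 (limma).

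Oasl1 and Oasl2 encode OAS-like proteins with ubiquitin-like domains; OASL1 is known as a restraint on the translation of IRF7, and mouse OASL2 keeps synthetase activity. Oasl1 had 0.518 to 1.45 CPM in control skin (median 0.853) and 2.79 to 52.7 CPM in model skin (median 28.3), a log2 fold change of 5.01 (SE 0.59, 32.2-fold, BH-adjusted p = 0.000548, edgeR QL). Its lowest model library, replicate 5, was within 2-fold of the highest control, whereas the next lowest had 19.5 CPM. On log2(TPM + 1) its change was 3.63, and on log2(TPM + 0.1) it was 4.53 (limma). Oasl2 had 4.53 to 9.48 CPM in control skin (median 7.30) and 21.9 to 122 CPM in model skin (median 74.7), a log2 fold change of 3.40 (SE 0.35, 10.6-fold, BH-adjusted p = 0.000548, edgeR QL). It was the member with the highest mean in model skin by length-scaled units (TPM), at 53.8 ± 23.1 TPM, which did not exceed Oas1a, at 50.3 ± 21.0 TPM, beyond their spread.

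In skin some libraries were at the same extreme for most genes of the family. Model replicate 5 was the lowest of the 6 model libraries for 8 of 8 genes, and model replicate 1 the highest for 7 of 8, with replicate 4 the highest for Oas2. Among the controls, replicate 6 was the lowest for 7 of 8. The highest control varied: replicate 2 for 4 genes, replicate 3 for 2, and replicates 1 and 4 for 1 each. Model replicate 5 also had the lowest sum of 12 monocyte and macrophage markers among model libraries, 470 CPM against 947 to 1493 CPM in the other 5. In controls the sum was 127 to 328 CPM, with replicate 6 the lowest. Without model replicate 5 the log2 fold changes of the 8 genes were larger, for instance 5.23 for Oas3 and 5.28 for Oasl1, and without model replicate 1 Oasl1 had 4.77.

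Pde12, a phosphodiesterase that degrades 2-5A, did not pass the test in skin, with a log2 fold change of -0.15 (BH-adjusted p = 0.486, edgeR QL).

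The rises were unequal. For each pair among the 8 genes, the log2 ratio of the 2 genes within a library was compared between model and control skin, a comparison chosen after the values had been seen (28 pairs, two-sided exact permutation test of 6 against 6 libraries, smallest possible p 0.00216). The change of Oas3 exceeded that of Oasl2 by 1.44 on the log2 scale (exact permutation p = 0.00216, BH-adjusted over the 28 pairs 0.00466), and it exceeded those of Oas1a, Oas1g and Oas2 as well, by 1.27, 1.13 and 1.52. Oasl1 likewise changed more than each of these 4 genes, by 1.06 to 1.45 (adjusted exact permutation p of 0.0101 to 0.0289). Oas3 and Oasl1 differed by 0.07 (exact permutation p = 0.797), and among Oas1a, Oas1g, Oas2 and Oasl2 no pair passed (differences of 0.08 to 0.39). Oas1c changed less than every other gene of the 8, with the widest gap, 4.10, against Oas3 (adjusted exact permutation p of 0.00466 to 0.00713).

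In DRG, none of the 8 genes passed the test. Across the tissue 0.0974% of tested genes were called, which is 19 genes, all higher. At an unadjusted p under 0.05, 0 of the 8 genes and 1822 of 19509 genes passed in edgeR, and DESeq2 called 142 genes and 0 of the 8. The median log2 fold change of the 8 genes was 0.19, against -0.01 over all tested genes. The groups overlapped for every member.

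Oasl2 was the highest member in DRG, with 20.03 to 27.8 CPM in controls (median 26.2) and 22.5 to 32.2 CPM in the model (median 26.2). Its log2 fold change was 0.06, with a 95% interval of -0.13 to 0.26. Oas1c followed, with 10.2 to 11.5 CPM in controls (median 10.6) and 9.19 to 12.2 CPM in the model (median 10.2). Its interval, -0.19 to 0.13, was the narrowest of the 8. For each member except Oas3 the DRG interval ended below 1.61, the log2 fold change of Oas1b in skin.

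Oas1a had means of 2.17 ± 0.313 CPM in control and 2.40 ± 0.497 CPM in model DRG, Oas1b 1.95 ± 0.397 and 2.31 ± 0.359, and Oasl1 2.01 ± 0.374 and 2.17 ± 0.483. Oas2 came nearest to the threshold, with 2.24 to 3.39 CPM in controls (median 2.74) and 2.67 to 4.23 CPM in the model (median 3.46). Its log2 fold change was 0.30 (95% interval -0.0042 to 0.61, BH-adjusted p = 0.539, edgeR QL). Oas1g was under 1.4 CPM in every DRG library. Oas3 was the lowest, with 14 to 68 counts per control library and 11 to 106 per model library. The 2 highest, model replicate 5 at 2.08 CPM and control replicate 6 at 1.07 CPM, set its log2 fold change of 0.66 (95% interval -0.50 to 1.82). That value was 0.05 without the first and 1.06 without the second, and neither passed.

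**Figure D3:**
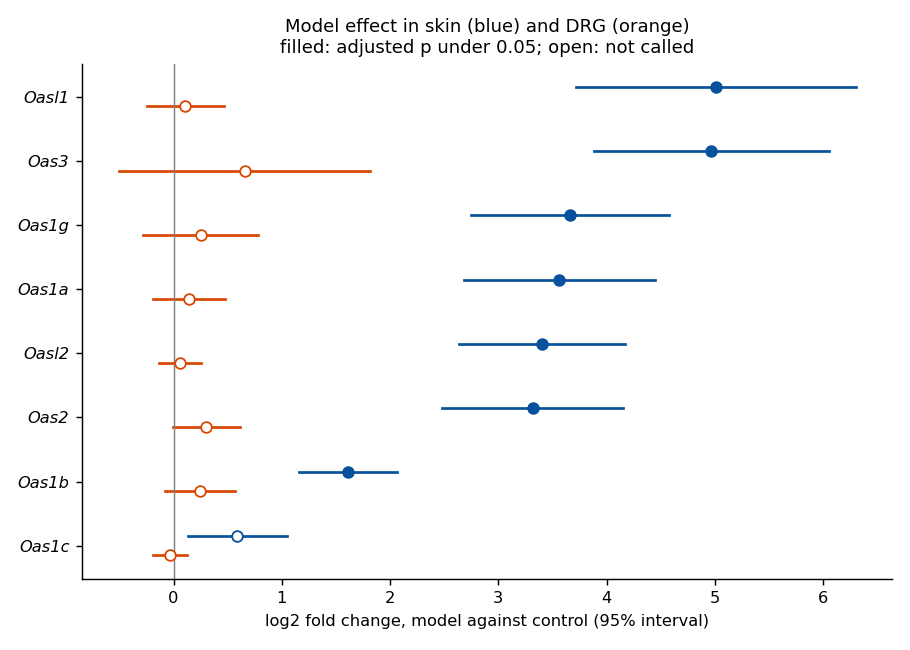
Log2 fold change of model against control with its 95% interval for the 8 OAS genes, in skin (blue) and DRG (orange), with filled points for an adjusted p under 0.05. The skin values run from 0.59 for Oas1c to 5.01 for Oasl1, and every DRG interval includes 0.

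The difference between the tissues was itself tested in 1 fit of all 24 libraries, each treated as independent. The model effect was larger in skin than in DRG for 7 of the 8 genes, a call made for 10.6% of all tested genes. The difference was 4.85 on the log2 scale for Oasl1 (SE 0.58), 4.27 for Oas3 (SE 0.74), 3.37 for Oas1a (SE 0.42) and 3.36 for Oas1g (SE 0.48). It was 3.29 for Oasl2, 2.97 for Oas2 and 1.32 for Oas1b (BH-adjusted p = 0.00133, edgeR QL). For Oas1c the difference was 0.58 (95% interval 0.14 to 1.02, BH-adjusted p = 0.0636, edgeR QL). It passed without skin control replicate 2 (adjusted p 0.00395) and without skin model replicate 5 (0.0227).

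In the controls all 8 members had counts in every library of both tissues, and their levels differed between the tissues. Such calls were made for 14183 of 17251 tested genes, so the number of members called is near the background. Control skin was above control DRG in 5 of the 8 genes, against 41.6% of all tested genes: Oas1a, Oas1b, Oas1g, Oas2 and Oas3, with log2 differences of 0.69, 0.62, 1.06, 1.38 and 1.47. It was below DRG in the other 3, against 40.6% of all tested genes: Oas1c by -1.65, Oasl1 by -1.17 and Oasl2 by -1.86. Pde12 was higher in control skin (1.47). The call on Oas1a (BH-adjusted p = 0.0369, edgeR QL) ended when any of 8 of the 12 control libraries was left out. Tissue and any separate handling of the 2 tissues cannot be told apart in this comparison.

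Levels of different genes were compared per length, from the TPM the authors deposited. The 8 genes summed to 22.3 ± 5.67 TPM in control skin and 222 ± 94.8 TPM in model skin, and to 42.0 ± 3.01 and 46.1 ± 4.01 TPM in control and model DRG. The sum of these 8 genes was thus larger in control DRG than in control skin. Oas1f, which is not in the sum, had a mean of 43.1 TPM in control skin and 0.0104 TPM in control DRG. The order thus covers the 8 genes only, not all Oas genes. In control DRG most of the sum came from 2 genes: Oasl2 made up 47.9% ± 2.15 and Oas1c 27.8% ± 2.38. In control skin the sum was spread more evenly, with Oasl2 at 21.6%, Oas1a at 17.9%, Oas1c at 16.1%, Oas1b at 15.9% and Oas2 at 14.0%. The SDs of these 5 shares were 1.77 to 3.43 percentage points, so neighbours among the last 4 did not differ beyond their spread. In model skin Oas1c made up 2.81% and Oas1b 5.83%, while Oasl1 went from 3.94% to 11.5% and Oas3 from 2.70% to 8.17%. Oas2 kept nearly the same share, 14.0% and 13.9%. In model DRG the shares of Oasl2 and Oas1c were 47.2% and 25.9%, each within 1 SD of the control value. The shares in 1 library sum to a fixed total, so a rise of some lowers the others.

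**Figure D4:**
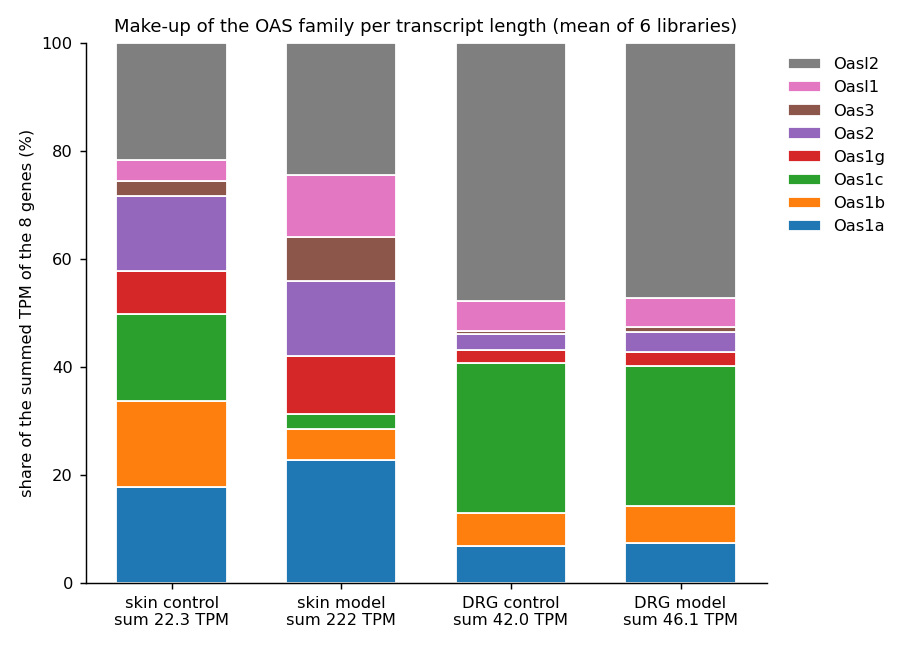
Share of each OAS gene in the summed TPM of the 8 genes (stacked bars from 0 to 100%, means of 6 libraries) in the 4 groups, with the mean sum under each bar. Oasl2 and Oas1c make up most of the DRG bars, and the Oas1c and Oas1b shares are smaller in model than in control skin.

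The other 4 Oas1 paralogs of the cluster did not share the skin rise. Oas1e and Oas1f were tested in skin alone, with log2 fold changes of -0.11 and -0.23 (BH-adjusted p of 0.896 and 0.772, edgeR QL). Oas1f had a mean of 30.6 ± 28.4 CPM in control skin and 25.98 ± 10.99 CPM with the model, at most 2 counts in any DRG library, and its highest value, 87.4 CPM, in skin control replicate 2. Oas1d had 4 counts in 1 skin model library, 3 in 1 DRG model library and none elsewhere, and Oas1h had no counts. In DRG, Oas1e was under the filter, with 0 to 4 counts per control library and 7 to 24 per model library. All 6 model libraries were above all 6 controls. This pattern was seen in 0.379% of the genes that passed the filter, and its share among genes under the filter was not worked out. With no filter its log2 fold change was 2.72 (SE 0.67) at an adjusted p of 0.318 (edgeR QL).

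Genes that act upstream of the family or beside it also changed in skin. Of 17 genes for sensing double-stranded RNA and passing on the signal, 10 rose and 1 (Irf3, log2 fold change -0.20, BH-adjusted p = 0.0488, edgeR QL) fell, a call made for 5.82% of all tested genes. Their median was 0.74. The 3 with the smallest p were Adar, an RNA-editing enzyme (0.74), Zbp1, a sensor of left-handed nucleic acid (3.77), and Dhx58, the regulator LGP2 (3.38). Of 17 genes for interferon receptors and their JAK-STAT signalling, 14 rose, with a median of 0.67. Irf7, the transcription factor that amplifies interferon production, went from 11.7 ± 2.52 to 160 ± 75.4 CPM (log2 fold change 3.77). Stat2 rose by 1.39, and Usp18, which dampens receptor signalling, by 2.93. All 20 of the other antiviral effectors rose, with a median of 3.28, among them Ifi44 (4.80), the tethering factor Bst2 (3.47) and Rtp4 (3.32). The background of rising genes in skin is the 14.1% given above, and the adjusted p of the 9 named genes that rose was at most 0.000582 (edgeR QL). These lists were also chosen with earlier results known, so the counts are descriptive and no test of the lists.

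Interferon genes themselves were barely detected. None of 21 listed interferon genes passed the filter in either tissue, and 13 had no count in any library. Together they had 59 counts in the 6 control skin libraries, 97 in model skin, 16 in control DRG and 11 in model DRG. Ifnb1 had 0 counts in control skin and 23 in model skin, at most 10 in a library, with 5 of the 6 model libraries above all controls. No library had more than 14 counts of any 1 of them, and changes in these genes were not tested.

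In DRG none of the 17, 17 and 20 genes of these lists were called, with medians of 0.11, 0.04 and 0.18. At an unadjusted p under 0.05 in edgeR, 4, 1 and 2 of them passed, against 1822 of 19509 genes. The genes with the smallest p had log2 fold changes of 0.67 (Ikbke), 0.23 (Mavs) and 0.18 (Trim25) in the sensing list, 0.14 (Stat2), 0.13 (Irf1) and 0.28 (Ifnlr1) in the receptor list, and 0.25 (Mx2), 0.44 (Ifit1) and 0.44 (Isg20) among the effectors. For the difference between the tissues, 7 of 17, 12 of 17 and 18 of 20 were called higher in skin, against 10.6% of all tested genes.

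**Figure D5:**
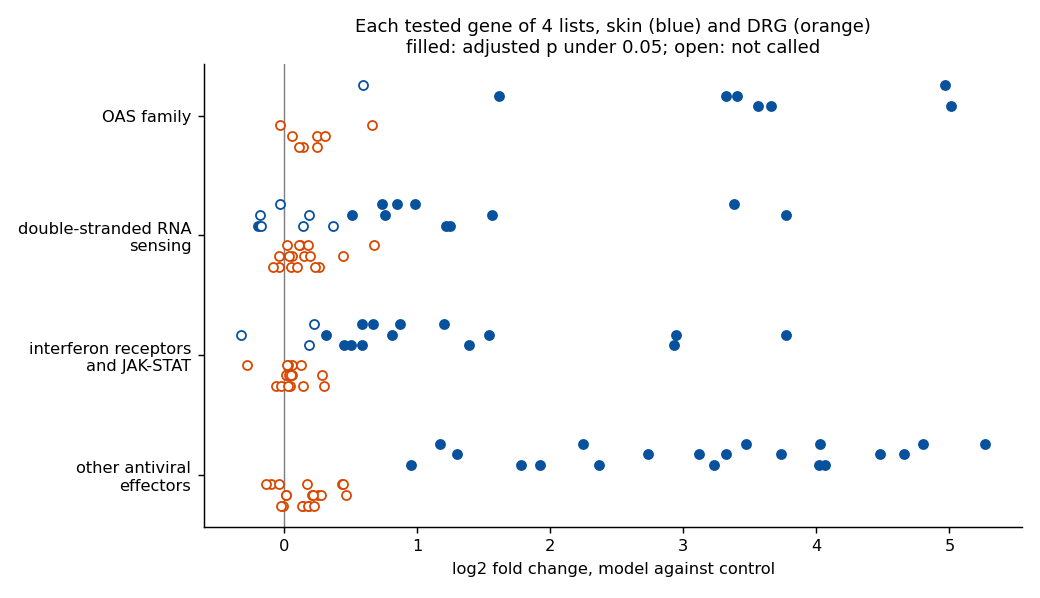
Log2 fold change of model against control for each tested gene of 4 lists, in skin (blue) and DRG (orange), with filled points for an adjusted p under 0.05. All 20 other antiviral effectors and 7 of the 8 OAS genes are filled in skin, Irf3 is the filled point below 0, and no DRG point is filled.

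Markers of several immune and other cell types rose with the OAS genes in skin, where 14.1% of all tested genes rose. Besides the 12 monocyte and macrophage markers, 7 of 7 dendritic cell, 6 of 8 T and NK cell, 5 of 8 neutrophil, 4 of 7 plasmacytoid dendritic cell and 3 of 3 tested B cell markers rose. So did 5 of 6 endothelial, 3 of 6 fibroblast and 4 of 5 red blood cell markers. Of 8 keratinocyte, 6 skeletal muscle and 6 satellite glia and Schwann cell markers none was called. The 6 hair follicle markers had a median log2 fold change of -1.58, where 4 had an unadjusted p below 0.05 but none was called. In DRG none of the tested markers of these lists was called. However, only 2 of 8 T and NK cell, 5 of 7 dendritic cell and 6 of 7 plasmacytoid dendritic cell markers were tested there. The same held for 4 of 6 hair follicle and 4 of 8 keratinocyte markers. The neutrophil and B cell markers each had a median of 1.16 in DRG, and 1 of 8 and 2 of 4 of them had an unadjusted p below 0.05. No marker of these lists was without counts in either skin group. The 7 plasmacytoid dendritic cell markers include Bst2, itself an interferon-induced gene, and summed to 105 to 142 CPM in the skin of controls and to 149 to 257 CPM in that of the model. Summed T and NK cell markers had 4.17 to 16.5 CPM in control skin and 15.0 to 154 CPM with the model (median 20.03). The 4 B cell markers summed to only 0.0798 to 0.595 CPM in control skin, and to 1.12 to 122 CPM in model skin (median 2.21). The highest model sums of both lists thus lay far above the medians. Whether the calls on these markers hold with a library left out is not reported here. The part of cell makeup in the OAS rise was not tested. As a measured value, OAS levels were divided by the monocyte and macrophage sum of the same library, a step added after the values had been seen. Per 1000 CPM of that sum, Oas3 had 4.66 to 7.24 CPM in control skin and 13.8 to 45.9 CPM in model skin. From control to model skin the median on this scale went from 6.07 to 35.9 for Oas3 and from 4.14 to 22.5 for Oasl1. For Oas2 it went from 33.6 to 58.0 and for Oasl2 from 31.3 to 60.6. For Oas1a it went from 14.5 to 34.4 and for Oas1g from 7.11 to 18.2. It was lower in the model for Oas1b (14.2 to 7.48) and Oas1c (15.7 to 4.37). The 12 markers of the sum rose by 1.49 to 4.76 on the log2 scale, so these values depend on the markers chosen. Other genes were not put on this scale.

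The genes most like the family were found by correlating each gene with the mean standardised log2 CPM of the 8 genes over the 12 libraries of a tissue, after removing the group means (14331 genes of at least 1 CPM in skin). In skin these were Ddx60 (r = 0.98), Bst2 (0.97), H2-T24 (0.97), Phf11d (0.97) and Parp12 (0.96). With the group means left in, the 5 nearest were Ddx60, H2-T24, Bst2, Themis2 and Tifab. Ddx60, a helicase linked to RNA sensing, went from 3.31 ± 1.16 to 26.5 ± 10.2 CPM in skin, and from 7.07 ± 1.62 to 7.38 ± 1.61 CPM in DRG. Among the members, deviations in skin followed the family mean most closely for Oasl2 (0.99) and least for Oas1c (0.70). Each member is part of that mean, so its value cannot be set beside those of the other genes. Such values describe 12 libraries of unequal tissue makeup, with hair follicle sums of 1162 to 51099 CPM and monocyte and macrophage sums of 127 to 1493 CPM, among them model replicate 5, the lowest model library for all 8 members. In DRG the nearest genes with the group means left in were Slfn9 (0.90), Dap (0.89), Fli1 (0.88), Bglap (0.88) and Litaf (0.87), and Oas1c ran against the family mean (-0.58).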

How the data were processed

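The members and gene lists were chosen with earlier results of these data known. Per the submitters' processing notes, bcl2fastq 2.20.0, Trimmomatic, HISAT2 2.1.0 and StringTie 2.1.3b were used with GRCm38/mm10; for the counting tool, strand setting and filters nothing is given in the sources used here. Read counts per gene (whole numbers, not normalized) were deposited by the authors, as were FPKM (scaled to length and depth, not used here) and TPM (scaled to length, then depth; used for shares and in alternatives). All value columns were matched to samples by library name, and 0 were left unmatched.

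Counts were tested in edgeR 4.0.16 (R 4.3.3) with filterByExpr, TMM and robust quasi-likelihood dispersion, 12 libraries per tissue, and in 1 fit of 24 libraries for the difference of the model effect and for control skin against control DRG. P-values were BH-adjusted over all tested genes. Standard errors were derived from the F statistic and intervals are 95%. Tests were checked on simulated counts.

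Named were all members, Pde12, the other Oas1 paralogs and, from each other list, the 3 tested genes with the smallest p per tissue; the 5 genes of highest likeness had a mean of at least 1 CPM (log2 CPM, prior count 2, predicted models left out). Irf3, Ifnb1 and Prdm12 were named after their values were seen, as were the pairwise ratios and the levels per marker sum. Shared stretches of 50 bases were counted in GENCODE M21 transcripts. Promoters and positions are from RefSeq (GRCm38.p6).

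Alternatives were DESeq2 1.42.0, RLE factors, no filter, a filter of 1 CPM in 6 libraries, a replicate block, a minimum absolute log2 fold change of 1, all 24 libraries in 1 fit, TMM within each tissue for the difference, limma 3.58.1 on log2(TPM + 1) and log2(TPM + 0.1), and each library left out in turn.

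Some genes of the pathway are not reported here.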

Additional observations from a re-analysis of the deposited data

Results flagged for a closer look

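Among 105 groups of 6 libraries checked (27 genes), 12 held a library far from the other 5. The cutoff is meant to flag about 1 in 20 independent groups. These checks share the same 24 libraries and are not independent, so the number cannot be set against that rate. Within the OAS family the flagged libraries were DRG model replicate 5 for Oas3 (2.08 CPM, next highest 0.726 CPM) and DRG control replicate 5 for Oasl2 (20.03 CPM, next lowest 25.4 CPM). Skin control replicate 2 was the high library for Oas1e (5.06 CPM), Oas1f (87.4 CPM), Stat2 (46.4 CPM), Irf1 (38.4 CPM) and Mx2 (2.44 CPM). The remaining flags were Adar in DRG control replicate 5 (81.3 CPM, high) and in skin model replicate 5 (61.4 CPM, low), Trim25 in DRG model replicate 6 (32.9 CPM, low), and Usp18 (3.22 CPM) and Irf1 (18.0 CPM) in DRG control replicate 6, both high.

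Among the same 27 genes, the model effect differed between skin and DRG by the test of the difference itself (edgeR QL, BH-adjusted) for 20. Oas1e and Oas1f were not tested there. A larger effect in skin was called for 10.6% of all tested genes. The members were chosen with earlier results known, and the genes of the other lists by smallest p in these data. The count is thus descriptive. In the family the log2 differences were 3.37 for Oas1a, 1.32 for Oas1b, 3.36 for Oas1g, 2.97 for Oas2, 4.27 for Oas3, 4.85 for Oasl1 and 3.29 for Oasl2. Among sensing genes they were 0.68 for Adar, 3.29 for Zbp1, 3.21 for Dhx58 and 0.76 for Trim25. In the signalling list Irf7 had 3.68, Stat2 1.21, Usp18 2.58 and Irf1 1.03. Of the effectors Ifi44 had 4.90, Bst2 3.25, Rtp4 3.26, Mx2 2.82 and Ifit1 3.55.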

How the results depend on the processing

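In skin 7 or 8 of the 8 OAS genes rose in every alternative and with any 1 library left out, and in DRG the number was 0 throughout. The log2 fold changes in skin kept their direction and call for the 7 genes, but their size fell on log2(TPM + 1), where the added 1 lowers the change of genes with low levels: to 3.42 for Oas3, 3.63 for Oasl1 and 3.01 for Oas1g. Oas1c also passed in skin with DESeq2 (adjusted p 0.0363) and with all 24 libraries in 1 fit (0.00997), and for the tissue difference with DESeq2 (0.046) and TMM within each tissue (0.0425). For the tissue difference 5 to 8 genes were called over the alternatives. The 5 came with the filter of 1 CPM, where Oas1g and Oas3 were too low in DRG to be tested. In DRG the near-zero values changed sign for Oas1c on log2(TPM + 1) (0.018) and log2(TPM + 0.1) (0.019) and without DRG model replicate 5, and for Oasl2 without DRG model replicate 3. With a library left out they ran from -0.088 to 0.0053 for Oas1c and from -0.010 to 0.10 for Oasl2. Control skin was above DRG in 3 of the 8 genes, not 5, with a log2 fold change of at least 1, and in 4 to 5 with a library left out. With the filter of 1 CPM the number was also 3, because Oas1g and Oas3 were not tested there. Over all genes, skin calls went from 3892 to 1739 with that minimum change and 6820 in the 24-library fit, with 2564 to 6278 when a library was left out. DRG calls went from 19 to 12 with the 1 CPM filter, 6 with the replicate block, 32 in the 24-library fit and 142 with DESeq2 (11 to 36 with a library left out). Calls for the tissue difference went from 2942 to 1335 with the minimum change (2229 to 4646 with a library left out), and for control skin against DRG from 14183 to 8288. The cause of these shifts in the totals over all genes was not tested. After removing group means, same-numbered control and model libraries correlated at -0.52 to 0.21 in skin and at -0.54 to -0.03 in DRG. Of these pairs 1 of 6 and 0 of 6 correlated best with their own number. Same-numbered skin and DRG libraries correlated at -0.07 to 0.12 in controls and at -0.18 to 0.08 in the model. Here 2 of 6 and 1 of 6 were best with their own number. No label says whether skin and DRG of the same number came from 1 mouse, and these values cannot settle it. The main fit of 24 libraries treated them as independent. The block changed no call on the 8 genes in the 4 comparisons. Oas1d, Oas1h and the interferon genes were under the filter on low counts in both tissues, and Oas1e and Oas1f in DRG.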
